A study of Mus musculus with 16 samples.

Results

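Double-stranded RNA of mouse testis was compared between adults and wild-type animals at postnatal day 18 (P18). Testis RNA was captured with J2, a mouse monoclonal antibody that recognises double-stranded RNA, and 2 adult J2 libraries were set against 3 wild-type P18 J2 libraries. The genes compared were those with a normalized count of 10 or more in at least 2 of these 5 libraries: 5241 of the 35920 genes in the deposited table, 12 of them without a symbol. The P18 mice were labelled C57BL/6 x 129S4/SvJae and wild type, while the adults were labelled wild type with the strain given as unknown and no age in days, so age and strain cannot be told apart. The study holds 16 libraries in all. Another J2 group, 3 P18 libraries of the same mixed background labelled Dcr-/- (Dicer knock-out), entered the fit only to help estimate the spread, and the flow-through (FT) RNA that J2 did not capture was sequenced for every group. The labels do not say that libraries of 1 group came from separate animals. The p-values rest on the scatter of these samples alone, and that scatter may be technical.

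J2 binds RNA helices by their shape rather than by sequence, so it captures paired transcripts and folded RNA of many kinds; transcripts from both strands of mitochondrial DNA are a well-known source. Mouse testis at P18 is in its first wave of spermatogenesis: spermatogonia have entered meiosis and spermatocytes are abundant, while spermatids that have begun to elongate come later. In the adult testis, spermatids replace histones with transition proteins and then protamines, build the acrosome and assemble the tail, and many of the messengers for these steps are made early and stored.

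The 5 J2 libraries differed in depth: a value of 10 stood for about 23.5 reads in the shallowest and 86.3 in the deepest, as estimated from the steps between low values. Between 37.9% and 61.1% of each total lay in 1 unplaced feature, CT010467.1, which did not differ between the groups beyond the spread (adjusted p = 0.98 in limma). Adult J2 replicate 2 stood apart: 22683 genes were above 0 in it against 6874 to 11016 in the other 4 libraries, and 10.8% of its total was mitochondrial against 0.835 to 1.24%. Across the tested genes, Spearman's rho was 0.42 between the adult libraries, 0.31 to 0.40 among the wild-type P18 libraries and 0.09 to 0.14 between the groups. This is a description, since the genes share libraries and the filter. Germ cell markers of testis were present in both groups: the summed level of 7 spermatocyte markers (Sycp1, Sycp3, Ldhc and others) was 1229 and 1240 in the adults and 1539, 2220 and 1271 at P18. The 8 spermatid markers (Prm1, Prm2, Tnp1, Tnp2, Acrv1, Odf1, Smcp, Akap4) summed to 2475 and 1906 in the adults and to 0, 0.987 and 1.67 at P18, and all 8 rose.

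Of the 5241 genes tested, 404 (7.71%) rose in adult J2 RNA and 37 (0.706%) fell, by limma on log2(normalized count + 1) with Benjamini-Hochberg adjusted p under 0.05. The 2 adult libraries lay above all 3 wild-type P18 libraries for all 404 rises and below them for all 37 falls. These genes were called on the same values, and the share of all tested genes without overlap was not counted, so this adds no support. Genes of the maturing spermatid led the rises, while replication-dependent histone genes, collagens and ribosomal protein genes led the falls. The median log2 difference of all tested genes was 0.41. The filter bears on these counts. Of the 404 rises 400 passed it only through the adults, and of the 37 falls 28 only through wild-type P18. Such a gene was already high in 1 group. Among the 1452 genes that passed through both groups, 4 (0.275%) rose and 9 (0.62%) fell, so there the rises did not outnumber the falls. Of the 404 rises, 258 were listed at 0 in all 3 wild-type P18 J2 libraries, and 204 of them also in all 3 Dcr-/- P18 libraries. For those 204 the P18 libraries show no scatter, and the fit pools the spread over the groups. Their SE and p-value therefore do not measure the spread between the 2 adults alone and can understate it. The log2 differences of genes at 0 in wild-type P18 are on the log2(value + 1) scale and depend on the added 1. They are not fold changes, and the order of the largest rises holds on that scale only. When only genes above 0 in at least 1 library of each group were kept, a choice made after seeing the data, 54 rose and 20 fell.

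**Figure D1:**
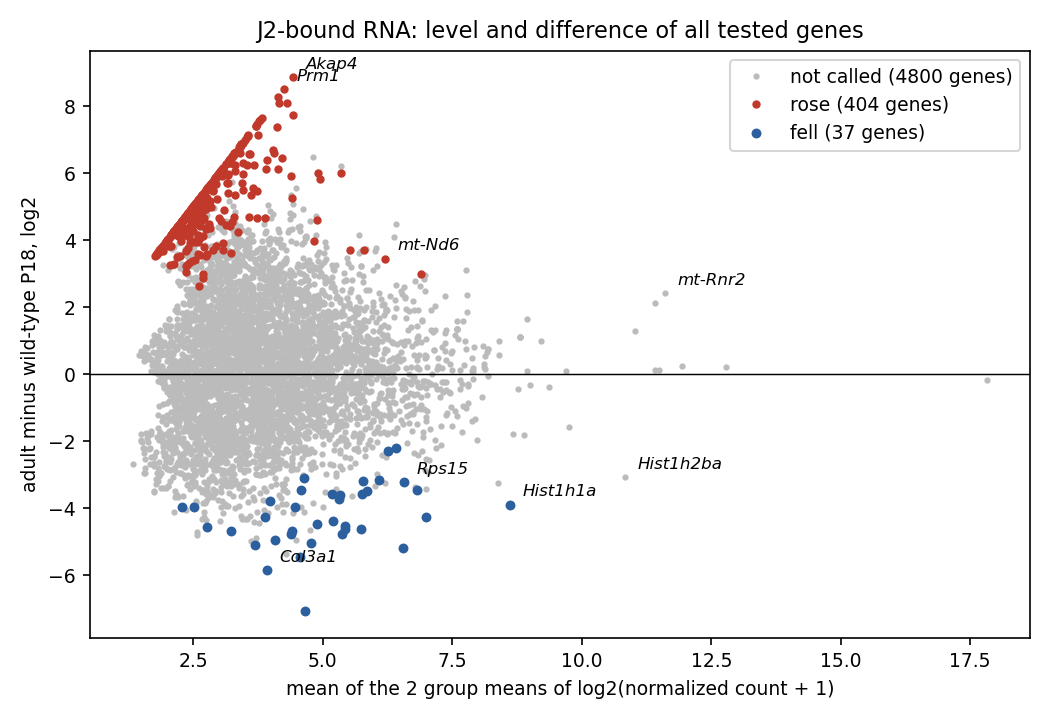
Difference between adult and wild-type P18 J2 RNA (vertical, log2) against the level (horizontal, mean of the 2 group means on the log2 scale) for the 5241 genes tested; red, 404 rises, blue, 37 falls, grey, not called. Genes listed at 0 in wild-type P18 fall on the straight upper left edge, where the difference is fixed by the adult level alone, and mt-Rnr2 and Hist1h2ba, both far to the right, were not called.

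Promoter windows are shown for some spermatid genes among the rises and some histone genes among the falls. They are examples that hold matches to the motifs below, not a representative sample of either kind. They are the 120 bases before an annotated start from RefSeq (GRCm38.p6) and are printed in lower case with the matches to 3 motifs, searched on both strands, in capitals. The motif TGANNTCA keeps the outer letters of the cAMP response element, which is bound by CREB-family factors such as CREM of spermatids. The motif TATAA marks a classical core promoter element. The motif CCAAT is a common element further upstream, written ATTGG where it lies on the other strand. The first 4 windows belong to rises: Prm1 at chr16:10796824-10796943 (minus strand), Tnp1 at chr1:73015900-73016019 (minus strand), Akap4 at chrX:7067395-7067514 (plus strand) and Gapdhs at chr7:30743682-30743801 (minus strand). The other 3 belong to falls on the plus strand: Hist1h1a at chr13:23763548-23763667, Hist1h1d at chr13:23554912-23555031 and Hist1h2ai at chr13:21716292-21716411.
Prm1: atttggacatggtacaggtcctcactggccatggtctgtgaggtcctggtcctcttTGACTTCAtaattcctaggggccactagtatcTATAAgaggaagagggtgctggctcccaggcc
Tnp1: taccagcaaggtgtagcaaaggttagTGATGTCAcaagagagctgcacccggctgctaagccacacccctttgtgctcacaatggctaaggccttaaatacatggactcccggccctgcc
Akap4: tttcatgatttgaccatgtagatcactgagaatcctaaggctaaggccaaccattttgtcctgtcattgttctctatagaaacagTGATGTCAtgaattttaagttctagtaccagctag
Gapdhs: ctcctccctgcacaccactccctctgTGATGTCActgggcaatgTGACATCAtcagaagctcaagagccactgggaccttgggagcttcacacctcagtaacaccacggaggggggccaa
Hist1h1a: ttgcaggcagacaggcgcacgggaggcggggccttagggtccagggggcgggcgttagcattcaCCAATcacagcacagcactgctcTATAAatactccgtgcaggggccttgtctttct
Hist1h1d: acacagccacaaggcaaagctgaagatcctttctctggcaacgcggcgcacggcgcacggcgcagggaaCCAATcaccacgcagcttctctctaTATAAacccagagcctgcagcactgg
Hist1h2ai: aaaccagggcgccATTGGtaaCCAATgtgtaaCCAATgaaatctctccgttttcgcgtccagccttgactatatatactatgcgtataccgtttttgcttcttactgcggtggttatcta

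The window of Prm1 holds TGANNTCA starting 64 bases before the start and TATAA 32 bases before it, Tnp1 holds TGANNTCA 94 bases before the start, and Akap4 holds it 35 bases before the first of its annotated starts. The windows of Hist1h1a and Hist1h1d each hold CCAAT followed by TATAA, and that of Hist1h2ai holds CCAAT several times. Other windows, not printed, differ: those of the rises Prm2, Tnp2, Smcp, Hils1 and Acrv1 hold no TGANNTCA. The fallen histone genes Hist1h4a and Hist1h4h do hold it, in 2 of 15 windows of fallen histone genes (13.3%). Windows were found for 325 of the 404 rises and 28 of the 37 falls, with several per gene where RefSeq gives several starts. TGANNTCA lay in 102 of 450 windows of the rises (22.7%), in 384 of 5289 windows of all tested genes (7.26%), in 2346 of 32851 windows in the table (7.14%) and in 2 of 30 windows of the falls (6.67%). TATAA lay in 30.0% of windows of the falls, 7.78% of those of the rises, 6.05% of tested genes and 11.8% of all windows. CCAAT lay in 60.0% of windows of the falls, 19.8% of those of the rises, 25.1% of tested genes and 21.3% of all. A match is a run of letters only, the 3 searches were counted separately where matches overlap, and windows of 1 gene or of neighbouring histone genes are not independent.

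Among genes that pack the spermatid nucleus, 8 of the 11 tested genes of protamines, transition proteins and other spermatid chromatin proteins rose and none fell (median log2 difference 5.53). All 8 passed the filter only through the adults. Of all 1187 genes that passed in that way, 400 (33.7%) rose, and this share, not that of all tested genes, is the base for the spermatid lists. Prm1, which encodes protamine 1, had 411 and 319 normalized counts in the 2 adult libraries and was listed at 0 in the 3 wild-type P18 libraries (log2 difference 8.50, SE 0.79, adjusted p = 3.3e-05 in limma). Prm2, the precursor of protamine 2, had 627 and 137 in the adults and 0, 0.242 and 0 at P18 (8.10, SE 0.89, adjusted p = 0.00012). The adult libraries differed more from each other for Prm2 than for Prm1, and neither overlapped P18. Tnp1, transition protein 1, had 289 and 172 in the adults against 0, 0 and 1.49, and Tnp2, transition protein 2, had 256 and 154 against 0 in each. Prm1, Prm2 and Tnp2 are neighbours on chromosome 16, with Prm1 at chr16:10796332-10796823 in RefSeq. Hils1, a spermatid linker histone, had 180 and 68.3 in the adults, and H1fnt, another, had 96.3 and 21.1. Both were listed at 0 in all 3 wild-type P18 libraries. Chd5, a chromatin remodeller of spermatids, had 10.1 and 35.3 against 0 in each.

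The remaining tested members of that list with high values were histone variants of earlier germ cells, and they pointed the other way without being called. Hist1h2ba, the testis H2B, had 1416 and 276 in the adults against 7414, 4776 and 4167 at P18 (log2 difference -3.08, SE 0.85, adjusted p = 0.057). Hist1h2aa, its H2A partner, had 88.2 and 24.0 against 319, 481 and 298 (-2.92, adjusted p = 0.059). The groups did not overlap for either gene. Both lay past the threshold, and 2 members of the list fell, with quantile normalization, with a common total without the mitochondrial genes, and with the P18 libraries of both genotypes as the reference. Neither was called with only the 5 compared libraries fitted, with no mean trend in the fit, or with any 1 wild-type P18 library left out.

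Genes of the tail followed. Of 21 tested genes of the fibrous sheath, outer dense fibres and related tail structures, 11 rose and none fell (median log2 difference 3.57, with 14 passing the filter only through the adults). Akap4, the main scaffold protein of the fibrous sheath and an X-linked gene (chrX:7067515-7078609), had 291 and 737 in the adults against 0 in each wild-type P18 library (8.86, SE 0.89, adjusted p = 6.0e-05). Its partner Akap3 had 133 and 117 against 0, 4.92 and 0 (6.12, adjusted p = 0.0019). Both adult values of each gene lay far above the highest P18 value. Smcp, a cysteine-rich protein of the mitochondrial capsule, had 509 and 211 against 0, 0.745 and 0. Odf1, an outer dense fibre protein, had 67.5 and 101 against 0, 0 and 0.18. Oaz3, the spermatid antizyme that restrains polyamine synthesis, had 184 and 65.7 against 0 in each. Spert, Cabyr, Ropn1, Ccin, Cylc1 and Fscb also rose, Fscb with an adjusted p of up to 0.17 when a library was left out (adult replicate 1 or 2, wild-type P18 replicate 1 or 3). Odf2, a dense fibre and centrosome protein, was already present at P18 with 488, 122 and 99.5 and had 479 and 216 in the adults, so the groups overlapped (0.83, adjusted p = 0.68).

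Of 22 tested acrosome and sperm surface genes 13 rose and none fell (median log2 difference 4.0). Of the 22, 14 passed the filter only through the adults, and 33.7% of all genes that passed in that way rose. Acrv1, an acrosomal matrix protein, had 25.1 and 76.0 in the adults and Spam1, a hyaluronidase of the sperm surface, 36.0 and 23.7. Hyal5, another hyaluronidase, had 34.2 and 29.8. These 3 genes were listed at 0 in every wild-type P18 J2 library. Izumo3, of the family of the egg-binding protein Izumo1, had 212 and 14.8 against 0 in each, so the adult libraries differed widely. Capza3, the spermatid form of an actin-capping subunit, had 692 and 83.3 against 0.391, 18.2 and 0.967 (6.01, SE 1.55, adjusted p = 0.041). The call of Capza3 was lost without adult replicate 1 or wild-type P18 replicate 1 or 3, with an adjusted p of up to 0.20. Spink2, a protease inhibitor of the acrosome, had 790 and 167 against 132, 577 and 153 and was not called (0.68, adjusted p = 0.77). Of 11 tested genes of the germ-cell ADAM family, membrane proteins of sperm, 6 rose, and 7 passed the filter only through the adults. The 6 were Adam4, Adam6a, Adam20, Adam25, Adam29 and Adam39, each listed at 0 in all 3 wild-type P18 libraries. Adam6a, for example, had 62.0 and 43.2 in the adults. Adam2 and Adam5, known from earlier germ cells, did not differ beyond the spread: Adam2 had 156 and 123 against 212, 124 and 98.5 (adjusted p = 0.998).

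Of 43 tested Spata, Tex, Tssk and Tsga genes, names given to genes found through their testis expression, 24 rose and none fell (median 3.97, with 29 passing only through the adults). Tssk1, Tssk2, Tssk3, Tssk4 and Tssk6, kinases of late spermatids, all rose: Tssk2 had 140 and 94.6 against 0, 0 and 0.853. Spata19, a mitochondrial protein of the sperm midpiece, had 120 and 80.1 against 0 in each. Spata33 (303 and 36.2 against 91.8, 324 and 83.6) and Spata6 (254 and 162 against 127, 3.67 and 15.7) were not called. Spata6 had both adult values above all 3 of P18, and its adjusted p was 0.38.

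**Figure D2:**
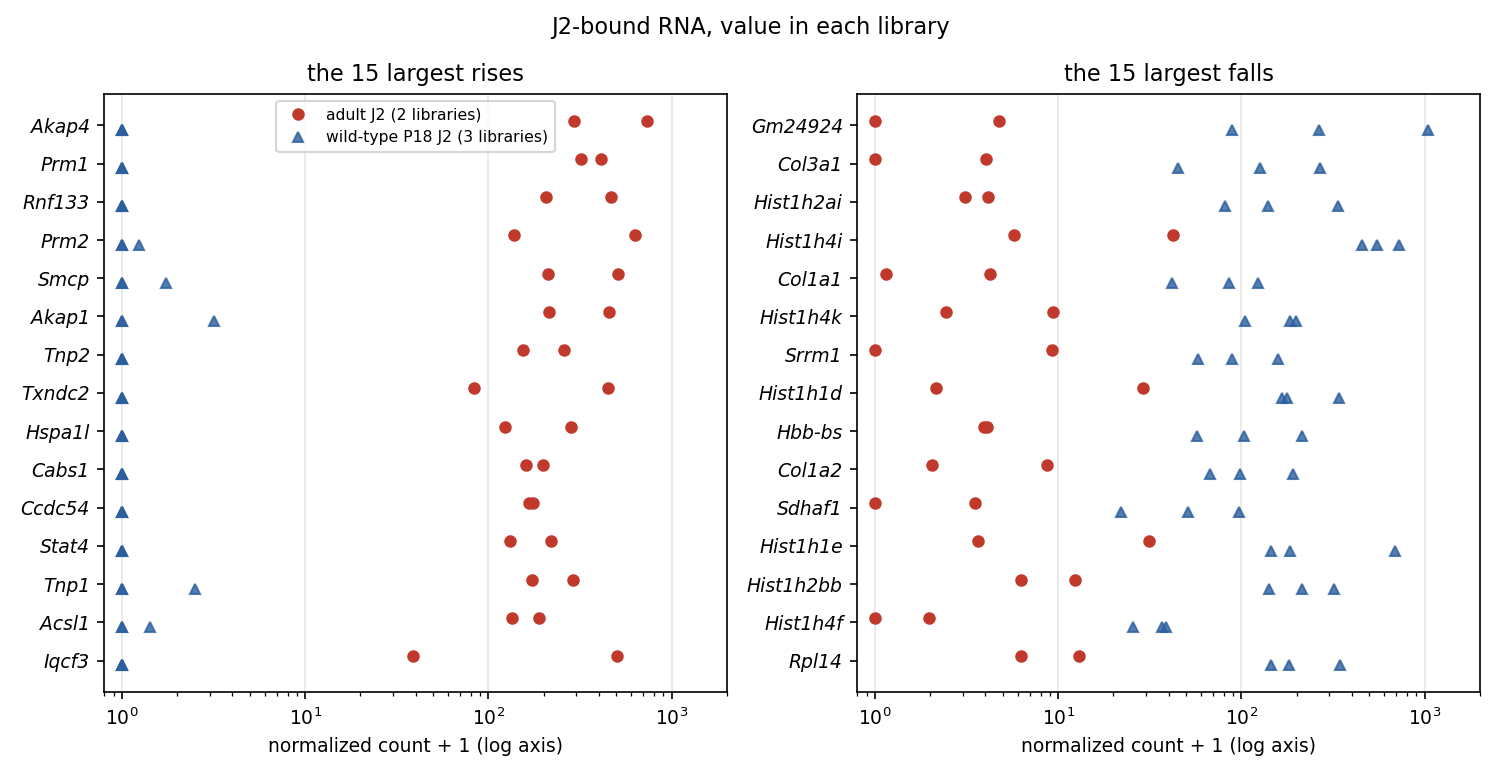
Normalized count plus 1 (log axis) in each J2 library for the 15 genes with the largest rise and the 15 with the largest fall on the log2(value + 1) scale; circles, the 2 adult libraries, triangles, the 3 wild-type P18 libraries. For the rises the triangles sit at or near 1, and for the falls the adult circles spread from 0 to 41.3 normalized counts, as for Hist1h4i.

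Calls were few among metabolic and regulatory genes. Of the germ-cell glycolysis genes tested 9.09% rose, of the chaperones 20% and of the spermatid transcription regulators 11.8%, against 7.71% of all tested genes. Among the chaperones 6.67% fell, against 0.706% of all tested genes. With so few members, these shares do not set the lists apart. Gapdhs, the sperm form of the glycolytic enzyme GAPDH, had 89.7 and 108 in the adults against 0 in each (6.63, SE 0.51, adjusted p = 1.0e-05) and was the 1 call among 11 tested germ-cell glycolysis genes. Ldhc, the germ-cell lactate dehydrogenase that spermatocytes already make, had 769 and 954 against 554, 1345 and 692 and did not differ beyond the spread (0.10, adjusted p = 0.95). Among 15 chaperones of germ cells, Hspa1l, Calr3 and Dnajc5b rose and Hspa8 fell. Hspa1l, a spermatid HSP70, had 282 and 123 against 0 in each, whereas Hspa8, the constitutive HSP70, had 21.3 and 52.0 against 189, 434 and 630 (-3.44, SE 0.70, adjusted p = 0.011). The call of Hspa8 was lost without adult replicate 1 or wild-type P18 replicate 3, with an adjusted p of up to 0.14. Among 17 regulators of spermatid transcription, Fhl5, a coactivator of CREM, had 136 and 89.5 against 0 in each, and Creb3l4, a CREB-family factor of spermatids, had 39.5 and 24.9 against 0, 0 and 2.81 (adjusted p = 0.067 without adult replicate 1). The other 15, with Kdm3a, Gtf2a1l and Tbpl1 the highest, were not called.

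Several of the largest rises lay outside these lists. Rnf133, a testis ubiquitin ligase of the endoplasmic reticulum, had 466 and 206 in the adults against 0 in each P18 library (8.28, SE 0.79, adjusted p = 4.1e-05). Akap1, which anchors kinase and RNA at the outer mitochondrial membrane, had 456 and 212 against 0, 0 and 2.16 at P18, and the Dcr-/- P18 libraries held 15.7, 6.60 and 19.5. Its adjusted p reached 0.051 without adult replicate 1 in limma, which ended the call. Stat4, a transcription factor, had 220 and 129, Txndc2, a sperm thioredoxin, 448 and 82.2, and Cabs1, a calcium-binding spermatid protein, 198 and 159. These 3 were listed at 0 in all wild-type P18 libraries. Acsl1, a fatty acid ligase, had 134 and 188 against 0, 0 and 0.426 (7.15, SE 1.64, adjusted p = 0.021), and its adjusted p was 0.054 to 0.15 when any of the 5 libraries was left out. Ccdc54 and Iqcf3 complete the 15 largest rises.

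Of the 1452 genes that passed the filter through both groups, 4 rose (0.275%) and 9 fell (0.62%). The 4 rises were Ide, Fbxo30, Usp1 and mt-Nd6, named after their values were seen. Ide, the insulin-degrading enzyme, had 281 and 142 in the adults against 8.46, 28.9 and 11.8 at P18 (log2 difference 3.71, adjusted p = 0.018). Fbxo30, a substrate adaptor of ubiquitin ligases, had 225 and 122 against 7.79, 11.5 and 17.8 (3.71, adjusted p = 0.027). Usp1, a deubiquitinase of DNA repair, had 334 and 335 against 16, 72.3 and 58.2 (3.0, adjusted p = 0.041). In the FT RNA Ide had 45.2 and 54.9 in the adults and 42.8, 33.3 and 27.6 at P18 (0.54, adjusted p = 0.67). The difference between the fractions was not called for any of the 4 (adjusted p = 0.41 for Ide). The effect of leaving out a library was computed for mt-Nd6 alone among them.

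Lists of earlier or shared steps held between 0 and 2 calls each, against 7.71% of all tested genes that rose. Of 38 tested genes of the axoneme, the motor of the tail, 1 rose (2.63%): Dnah3, a dynein heavy chain, had 28.3 and 139 against 0 in each (adjusted p = 0.15 without adult replicate 2). The highest of that list, Dnah8, a sperm dynein heavy chain, had 485 and 1462 against 639, 476 and 242 and was not called. Of 20 tested meiosis genes 1 (5%) rose, Tex15, a factor of meiotic repair and retrotransposon silencing (21.0 and 47.8 against 0.475, 0 and 0.454), and its adjusted p was 0.052 to 0.11 when any of the 5 libraries was left out. None of 25 tested genes of messenger storage and translation in germ cells was called, with a median of 0.48 near that of all tested genes, and 1 of them fell without adult replicate 2. In the piRNA pathway, which silences retrotransposons in germ cells, 2 of 17 tested genes (11.8%) rose: Kif17, a kinesin linked to the chromatoid body (85.7 and 24.8 against 0 in each), and Asz1, a protein of the piRNA assembly sites (16.5 and 14 against 0, 1.73 and 0). Mael and Tdrd6, the highest of that list, were not called.

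**Figure D3:**
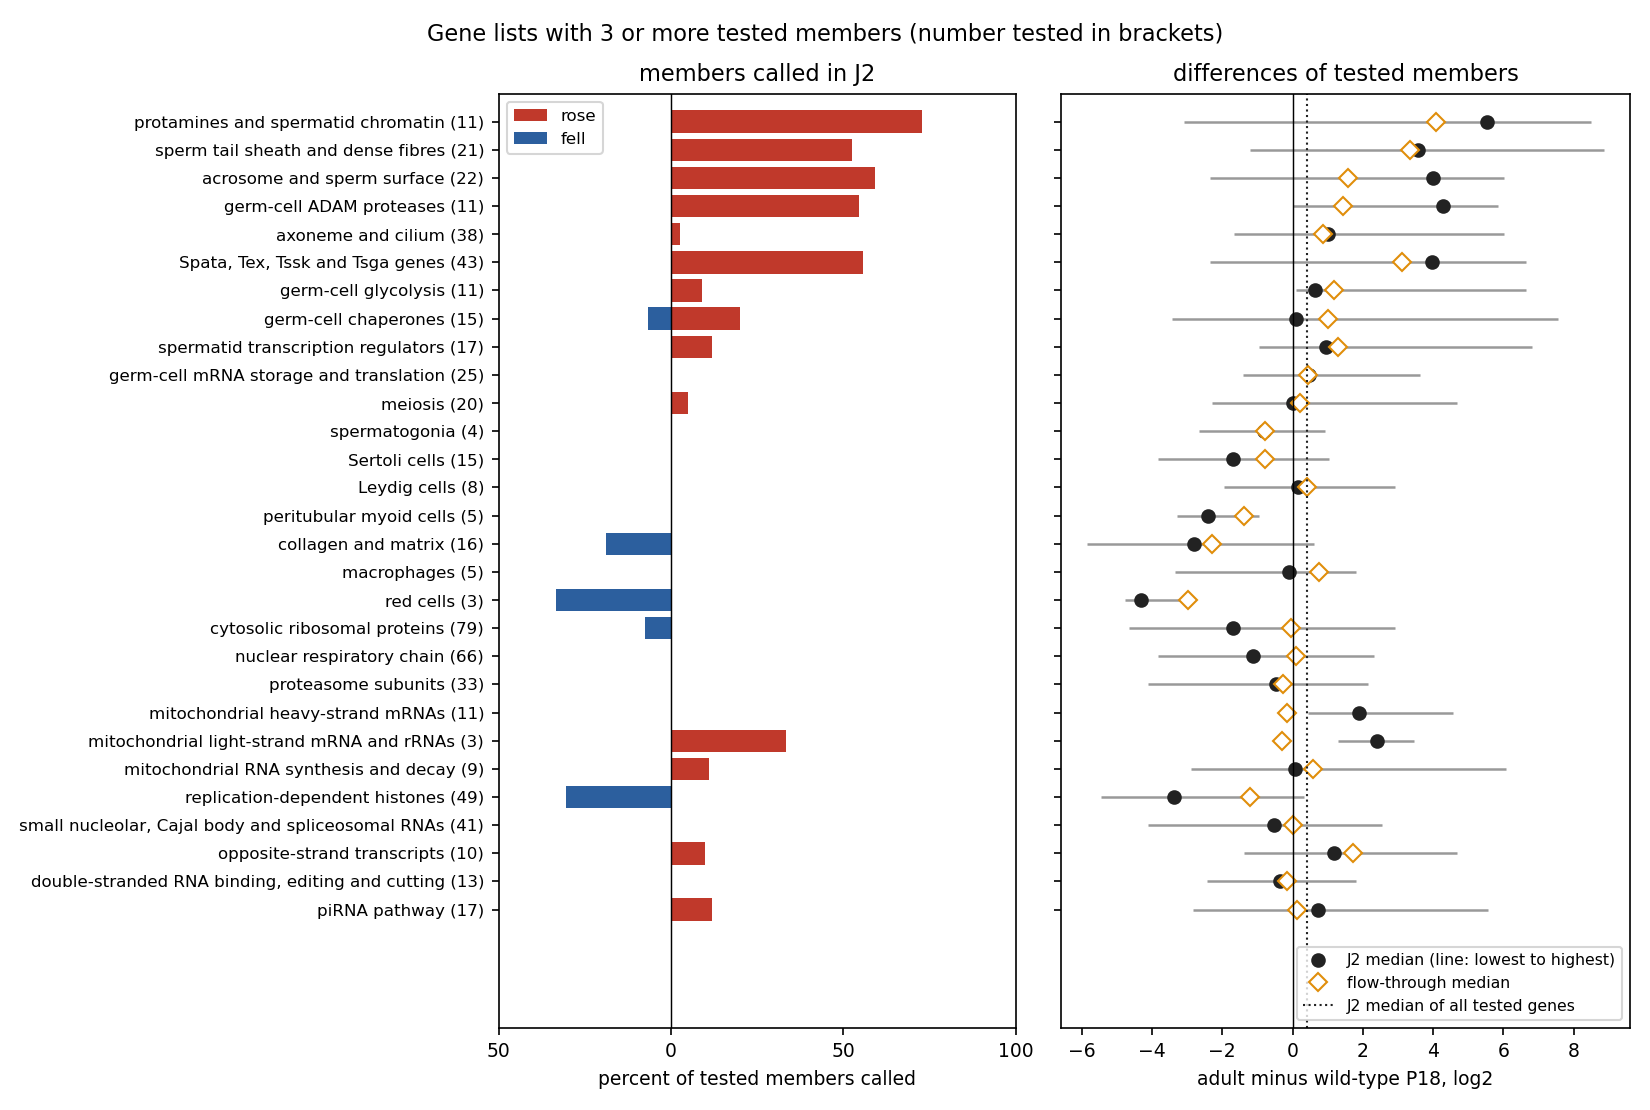
Left, the percent of tested members of each gene list that rose (red, to the right) or fell (blue, to the left) in adult J2 RNA; right, the median log2 difference in J2 (black), its range (line) and the median in flow-through (open diamonds), with the J2 median of all tested genes dotted. The lists of spermatid genes stand at the top with medians of 3.57 to 5.53, and replication-dependent histones have the lowest J2 median, -3.36, apart from the 3 red cell genes.

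Replication-dependent histone genes, whose messengers lack a poly(A) tail and end in a stem-loop, were the largest group of falls. Of 49 tested members 15 fell and none rose, 47 had a negative difference, and the median was -3.36. Of the 49, 45 passed the filter only through wild-type P18, which leans a gene towards a negative difference. Of all 1593 genes that passed in that way 28 fell (1.76%), and these include histones of the list. The share of the histone list that fell, 30.6%, is of all 49 tested members, so the shares have unlike bases. Chromosome 13 as a whole held 15 of the 37 falls (40.5%) and 4.22% of the tested genes. All 15 fallen histone genes lie in its histone cluster. They comprise linker histones (Hist1h1a, Hist1h1d, Hist1h1e), H2A (Hist1h2ai), H2B (Hist1h2bb, Hist1h2be, Hist1h2bg, Hist1h2bk, Hist1h2br), H3 (Hist1h3f) and H4 (Hist1h4a, Hist1h4f, Hist1h4h, Hist1h4i, Hist1h4k). Hist1h2ai had 2.08 and 3.11 in the adults against 79.9, 335 and 139 at P18 (-5.45, SE 0.84, adjusted p = 0.0015). Hist1h2bb had 5.28 and 11.3 against 320, 212 and 140 (-4.60, SE 0.66, adjusted p = 0.00092). Hist1h4i had 41.3 and 4.70 against 720, 548 and 456 (-5.19, SE 0.95, adjusted p = 0.0053). Hist1h1a, a linker histone of germ cells, had 404 and 24.4 against 2490, 1332 and 1026 (-3.89, adjusted p = 0.046). For each of these genes both adults lay below all 3 P18 libraries, and adult replicate 2 was the lower for most members.

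Many histone copies are nearly identical in sequence, so the estimate for a single copy is uncertain and the sum is the safer value. The summed share of the library was 0.324% and 0.0491% in the adults against 1.37%, 2.43% and 1.12% at P18 (0.186% ± 0.194, SD, n = 2, against 1.64% ± 0.692, SD, n = 3; two-sided exact permutation p = 0.2, the smallest that 2 against 3 allows). The count of 15 fell to 6 without adult replicate 2, to 7 without wild-type P18 replicate 2 or 3, and to 6 when the Dcr-/- libraries were left out of the fit. Hist1h2ai, Hist1h2bb, Hist1h2bk and Hist1h4k were called under every alternative that gave them a value. Hist1h4i had an adjusted p of 0.12 without adult replicate 2, and Hist1h1a was called in the fit without adult replicate 1 but not in any fit without 1 of the other 4 libraries (up to 0.31).

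Of 79 tested cytosolic ribosomal protein genes 6 fell (7.59%, against 0.706% of all tested genes) and the rest were not called. A negative difference was found in 72 of the 79, with a median of -1.69, and 30 passed the filter only through wild-type P18. The falls included Rpl14, Rpl28, Rpl32, Rps3 and Rps15. Rpl14, of the large subunit, had 11.9 and 5.29 in the adults against 343, 143 and 181 (-4.53, SE 0.75, adjusted p = 0.0027). Rps15, of the small subunit, had 17.2 and 52.4 against 463, 275 and 188 (-3.22, adjusted p = 0.032). Its adjusted p was 0.057 to 0.28 when any of the 5 libraries was left out, and Rpl32 lost its call without any 1 of the P18 libraries. The count of 6 became 9 without adult replicate 1, 4 without wild-type P18 replicate 1 or 2, 2 with only the 5 compared libraries fitted, and 1 with genes above 0 in both groups. Rps15 did not lie below all 3 Dcr-/- P18 libraries, where it had 52.0, 174 and 177. The list made up 0.657% and 0.34% of the adult libraries and 1.81%, 1.84% and 1.2% of the wild-type P18 ones (0.499% ± 0.224, SD, n = 2, against 1.62% ± 0.358, SD, n = 3; two-sided exact permutation p = 0.2, the smallest possible). Rpl4, the highest of the list, had 280 and 39.0 against 313, 233 and 398 and was not called (-1.54, adjusted p = 0.39). In the FT fraction the median of these genes was -0.04 and none was called. Among other large complexes, none of 66 nuclear respiratory chain genes (median -1.12) and none of 33 proteasome genes (median -0.48) was called.

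**Figure D4:**
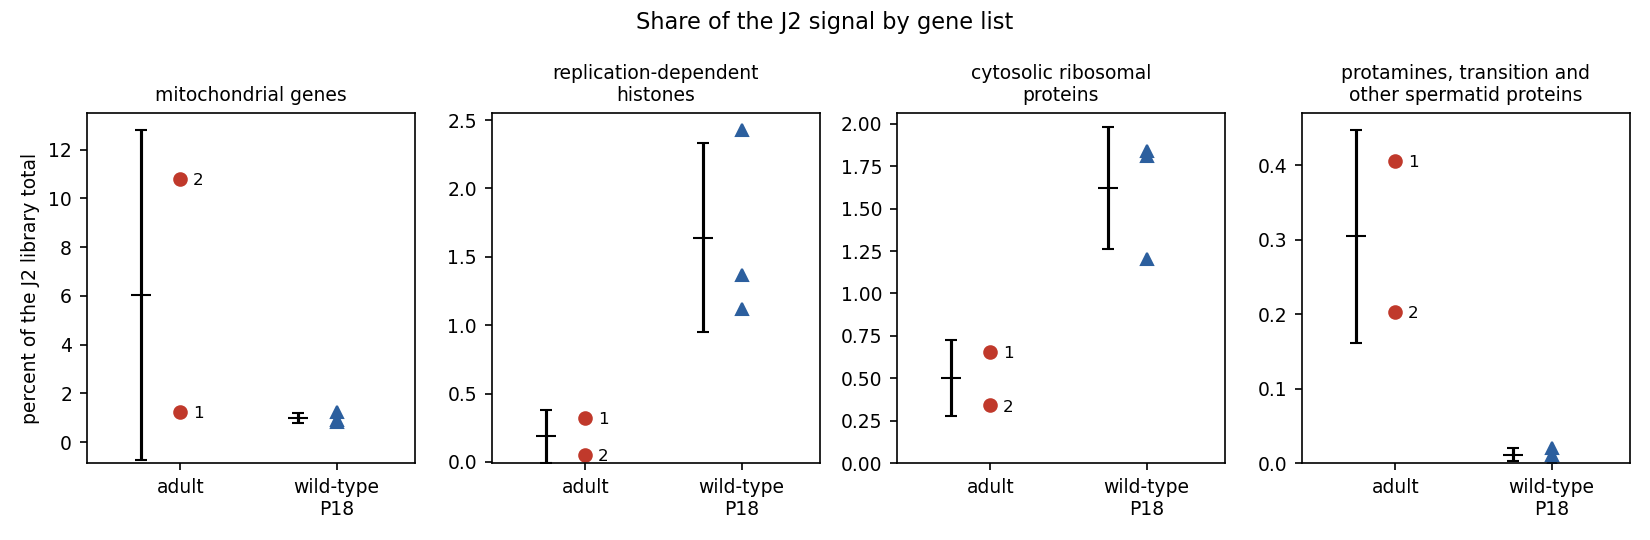
Percent of the total of each J2 library taken by 4 gene lists; circles, the adult libraries (numbered 1 and 2), triangles, the 3 wild-type P18 libraries, bars, mean and SD. Histone and ribosomal protein shares are lower in both adults and the spermatid chromatin share (Hist1h2ba and Hist1h2aa left out) is higher, while the mitochondrial share is high in adult library 2 alone (10.8%).

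Genes of connective tissue and red cells were among the other large falls. Of 16 tested collagen and matrix genes 3 fell and 15 had a negative difference (median -2.81), with 15 passing the filter only through wild-type P18. The 3 falls are 18.8% of all 16 tested members, against 1.76% of all genes that passed in that way, which include these 3. Col3a1, fibrillar collagen III, had 0 and 3.02 in the adults against 268, 126 and 44.1 (-5.85, SE 1.28, adjusted p = 0.017). Col1a1 had 3.25 and 0.148 against 84.7, 40.9 and 121, and Col1a2, the other chain of collagen I, had 1.04 and 7.69 against 96.9, 190 and 66.2. None of the 3 was called without adult replicate 1, and 1 was called without adult replicate 2 or without wild-type P18 replicate 1. The adjusted p of Col3a1 was up to 0.28 when a library was left out. Hbb-bs, adult beta globin of red cells, had 3.06 and 2.92 against 102, 214 and 56.5 (-4.76, SE 0.83, adjusted p = 0.0037). Acta2, smooth muscle actin of the peritubular myoid cells, had 5.43 and 4.83 against 22.3, 105 and 83.1 without being called (-3.27, adjusted p = 0.058). None of 15 Sertoli cell genes was called, though 13 had a negative difference (median -1.68): Clu, for example, had 113 and 39.2 against 375, 110 and 268. Leydig cell (8), macrophage (5), spermatogonial (4) and endothelial (1) genes tested gave no calls. Of the Sertoli list 1 gene fell without adult replicate 2, and of the 5 tested myoid genes, none of them called, 1 fell without wild-type P18 replicate 1. Some marker sums moved with these results and others did not: myoid markers summed to 9.77 and 11 in the adults against 73.3, 113 and 149, red cell markers to 3.06 and 5.07 against 102, 293 and 70.6, Sertoli markers to 170 and 71.0 against 524, 143 and 345, and Leydig markers to 181 and 130 against 79.7, 86.0 and 155. Spermatogonial markers summed to 11.4 and 16.8 against 35.4, 67.8 and 81.7, macrophage markers to 31.7 and 13.7 against 0, 2.45 and 81.4, and endothelial markers to 77.7 and 7.10 against 4.97, 12.2 and 20.5. The groups overlapped for the Sertoli, Leydig, macrophage and endothelial sums. Epididymal markers were at 0 and 0.58 in the adults and 0 at P18. The marker sums are of J2-captured RNA of whole tissue. There, fewer cells of a type and less RNA per cell cannot be told apart, and this holds equally for the spermatid genes. How far capture by J2 bears on the sums was not tested.

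The falls outside the lists included Srrm1, a splicing coactivator (0 and 8.20 against 88.1, 158 and 56.8; -4.95, adjusted p = 0.017), and Sdhaf1, an assembly factor of respiratory complex II (0 and 2.49 against 50.1, 95.5 and 20.9). Gm24924, annotated as a small nuclear RNA gene, had the largest fall, with 0 and 3.73 against 264, 1046 and 88.1 (-7.07, SE 1.57, adjusted p = 0.018). The calls of all 3 were lost without adult replicate 1, that of Gm24924 also without adult replicate 2 or wild-type P18 replicate 2 and that of Srrm1 without wild-type P18 replicate 1 or 2, with an adjusted p of up to 0.24 for Sdhaf1. Sdhaf1 was listed at 0 in all 3 Dcr-/- P18 libraries, and Gm24924 had 5.15, 0 and 0 there. These 2, Rps15, Svil and Gm19412 were the 5 falls in which the adults did not lie below all 3 Dcr-/- P18 libraries. For 399 of the 404 rises both adults lay above all 3 of them. The share of all tested genes placed in this way was not counted, so these counts are descriptions.

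Mitochondrial transcripts, a well-known source of double-stranded RNA, had a positive difference in every tested member and 1 call, and the high values lay in adult replicate 2. Of 11 heavy-strand messengers none was called (median 1.88), and 3 rose without adult replicate 1. mt-Rnr2, the 16S ribosomal RNA, had 1937 and 26870 in the adults against 1692, 1574 and 934 (2.41, SE 0.98, adjusted p = 0.22). mt-Co1, of cytochrome oxidase, had 1816 and 17573 against 784, 1451 and 1938. Adult replicate 1 thus lay within or just above the P18 range for both, and replicate 2 far above it. mt-Nd6, the 1 messenger made from the light strand, had 170 and 343 against 11.8, 21.3 and 37.7 and rose (3.45, SE 0.84, adjusted p = 0.031). The Dcr-/- P18 libraries had 130, 48.3 and 229 of it, which overlaps the adults, and the call was lost without either adult library or without wild-type P18 replicate 1 or 2 (adjusted p up to 0.25). The share of all mitochondrial genes was 6.04% ± 6.79 (SD, n = 2) against 0.999% ± 0.215 (SD, n = 3; two-sided exact permutation p = 0.4). Tfam, which packages and transcribes mitochondrial DNA, was the 1 call among 9 tested nuclear genes of mitochondrial RNA synthesis and decay, with 86.3 and 73.4 against 0.759, 0 and 0 (6.06, SE 1.11, adjusted p = 0.0053). That is 11.1% of the list, near the 7.71% of all tested genes that rose.

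Genes that sense, bind or edit double-stranded RNA were few and uncalled. Of 29 genes of double-stranded RNA sensing and the interferon response, 2 passed the filter, and neither was called, while 1 fell without wild-type P18 replicate 3. Of 25 genes that bind, edit or cut double-stranded RNA 13 passed and none was called. Adad1, a testis protein with a double-stranded RNA binding domain, had 108 and 81.9 against 26.1, 111 and 5.64. None of 41 small nucleolar, Cajal body and spliceosomal RNAs was called, but 5 fell without adult replicate 1 and 1 without wild-type P18 replicate 1. Among them Rmrp, the RNA of RNase MRP, had 429 and 323 against 237, 1124 and 486. That list leaves out Gm24924, the small nuclear RNA gene that fell, and 1 member fell with both P18 genotypes as the reference. Of 10 tested genes whose names mark them as opposite-strand transcripts (a pattern that also caught the coding gene Selenos), 1 rose (10%, against 7.71% of all tested genes). This was Cdiptos, which had 64.4 and 36.5 against 0, 6.16 and 0 (4.68, adjusted p = 0.018). Its adjusted p was up to 0.14 when a library was left out, and the call held only without wild-type P18 replicate 2.

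What the called genes shared was examined in the annotation. Of the rises, 57 (14.1%) carry RIKEN clone names, against 3.74% of the tested genes; 4933411K16Rik, for example, had 177 and 106 against 0 in each. Of all tested genes 7.71% rose. Of 106 tested X-linked genes 18 rose (17%), among them Akap4, Cypt1, Cypt3 and Brwd3, and none of the 10 sex-linked multicopy spermatid genes present in the table passed the filter. Of 88 tested genes annotated as long noncoding RNA, 20 rose (22.7%). The median gene span was 17.7 kb for the rises, 1.63 kb for the falls and 25.2 kb for all tested genes with a span. Of the rises with a span and strand in RefSeq, 106 of 325 (32.6%) overlap a gene on the other strand, against 1208 of 4118 tested genes (29.3%) and 2 of 28 falls (7.14%). These shares are descriptions with no test.

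The same comparison in the FT libraries gave the difference between adult and wild-type P18 outside the J2 fraction. Of the same 5241 genes 237 (4.52%) were higher in adult FT RNA and 11 (0.21%) lower. Among the 404 J2 rises, 381 had a positive FT difference and 196 were called higher, with a median of 3.45. Among the 37 J2 falls, 30 had a negative FT difference and 4 were called lower: Col1a1, Col3a1, Hbb-bs and Hspa8. Prm1 had 524 and 855 in adult FT against 0, 2.44 and 0 at P18, and Gapdhs 152 and 260 against 0 in each. Col3a1 had 0.941 and 1.28 against 437, 96.9 and 43.8. These genes differed between adult and wild-type P18 in both fractions. The replication-dependent histones had a median of -1.20 in FT with none called. Hist1h4h had 24.1 and 75.1 against 62.1, 27.5 and 72.1, and the groups overlapped for it and for Hist1h2ai. For Hist1h4k and Hist1h1e they did not: Hist1h4k had 14.4 and 23.1 against 80.9, 39.4 and 98.1 (-1.84, adjusted p = 0.21 in limma). The lack of calls therefore does not show that the histones were unchanged in FT.

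The difference between the fractions itself is the adult minus wild-type P18 difference in J2 minus that in FT. It was called for 14 genes (0.267%), 13 more positive and 1 more negative in J2. With the sample code that a J2 and an FT column share as a replicate block, 2 and 0 were called. Every 1 of the 13 was a J2 rise. Rnf133 had 4.06 and 6.90 in adult FT against 466 and 206 in adult J2 (interaction 5.62, SE 0.90, adjusted p = 0.0090). Cntnap5b, a cell adhesion gene, had 2.49 and 2.93 in adult FT against 419 and 42.3 in adult J2 (5.19, adjusted p = 0.032). Adam6a and Adam25 were among the 13. The 1 more negative was Gm19412, a noncoding gene that overlaps Tapbp and Zbtb22 on the other strand, with 0 and 0.53 in adult J2 against 12.7, 23.3 and 20.7 at P18. None of the called histone, ribosomal protein or collagen genes was among the 14, so a difference between the fractions was not shown for them. The 13 genes were at 0.468 or below at P18 in J2 and at 6.71 or below in FT, so their values rest on the adult levels and on the added 1: with 10 added in its place 14 were more positive, 7 of them among the 13. A value of 10 stands for about 1.2 to 5 reads in these FT libraries, so an FT value of 0 is a weaker statement than a J2 value of 0. The count of 14 changed with the libraries used, from 6 to 72 more positive genes when 1 library was left out (72, 37 and 22 without adult FT replicate 2, adult J2 replicate 2 and adult FT replicate 1, and 6 or 7 without any 1 of the P18 libraries).

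**Figure D5:**
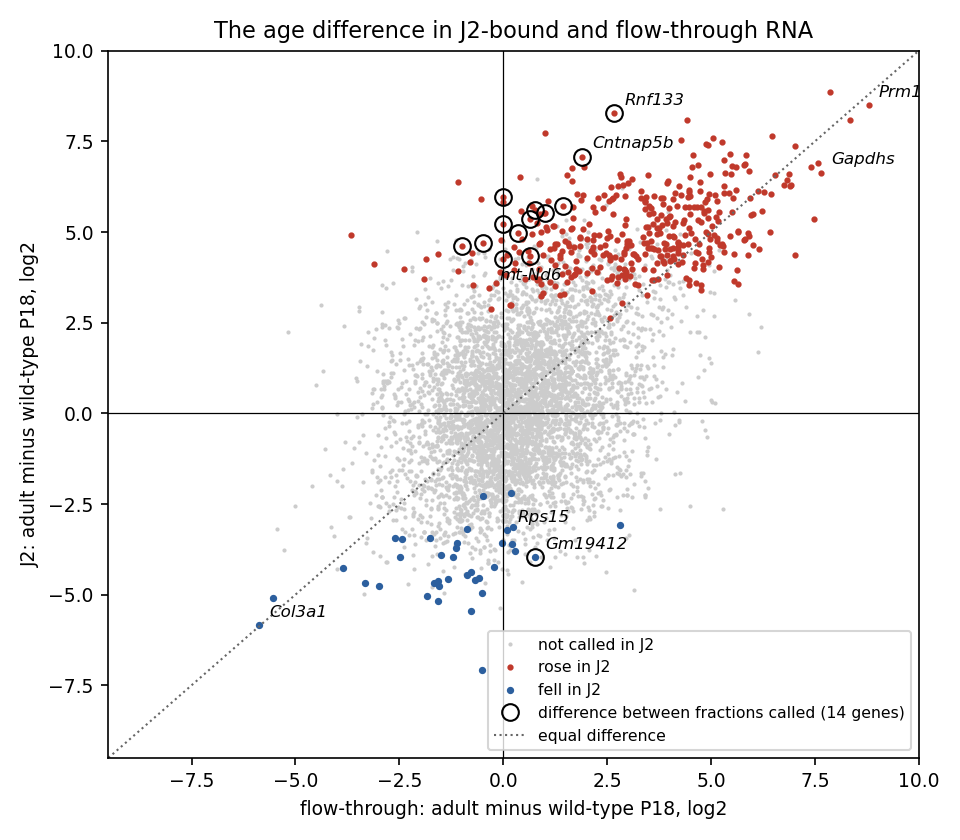
Difference between adult and wild-type P18 in J2 RNA (vertical) against flow-through RNA (horizontal), both log2, for the tested genes; red, J2 rises, blue, J2 falls, black rings, the 14 genes whose difference between fractions was called. Prm1, Gapdhs and Col3a1 lie near the dotted line of equal difference, and Rnf133 and Cntnap5b lie well above it.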

How the data were processed

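RNA of mouse testis captured with J2 and the flow-through were made into strand-specific libraries and sequenced, per the labels' protocols. The deposited table holds normalized counts (a signal per gene that need not be whole). The submitters' processing notes name FastQC, Trimmomatic, Salmon, DESeq2 and the mm10 build, with no versions, and the authors' scaling was kept. Genes with 10 or more in at least 2 of the 5 J2 libraries were tested on log2(value + 1) in limma 3.58.1 (R 4.3.3) with a mean trend, in a fit over 8 J2 libraries, another over 8 flow-through libraries, and an interaction over all 16; p-values were Benjamini-Hochberg adjusted over 5241 genes at a threshold of 0.05. No count model was run, since whole reads were not recovered for most genes. The code was tested on simulated data. Named were the 15 largest called rises and falls without overlap, the called and the 3 highest members of each list, and the 10 highest genes. Members and lists were chosen with earlier results of these data known. Shares were compared by exact permutation. Symbols were matched for 35446 gene IDs, and 5143 tested genes matched RefSeq (GRCm38.p6). Alternatives were other filters, pseudocounts, scalings, references and leaving out each library.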

Additional observations from a re-analysis of the deposited data

Results flagged for a closer look

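The adult minus wild-type P18 difference was called as unlike in J2 and flow-through RNA for 14 genes, by the interaction term in limma over 16 libraries. With the shared sample code as a replicate block, 2 more positive and 0 more negative were called. Each of the 14 is given with the J2 minus flow-through difference on the log2 scale. The protein-coding genes were Rnf133 (5.62), Adam25 (4.71), Adam6a (4.27), Cntnap5b (5.19), Cst13 (4.51), a cystatin, 1700016D06Rik (4.84), Gm14819 (5.59) and Gm14391 (3.7). Those annotated as noncoding were 4930525G20Rik (5.2), 4933438K21Rik (4.61), BC061195 (5.96) and Gm19412 (-4.73), and those without a RefSeq match were Gm37664 (4.27) and Gm38198 (5.22). Adam25, for example, had 77.7 and 20.5 in adult J2, 0 in the 3 wild-type P18 J2 libraries and 0 and 1.48 in adult flow-through. The long noncoding 4930525G20Rik had 27.5 and 23.1 in adult J2 and was listed at 0 in both adult flow-through libraries (adjusted p = 0.00096 in limma). Its span overlaps Gm10037 and Zfp273 on the other strand. Of the 11 with a RefSeq strand, 3 overlap a gene on the other strand (27.3%), against 29.3% of the tested genes.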

How the results depend on the processing

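No named gene that was called, as reported or under an alternative, changed direction. Changes of sign in uncalled genes and in list medians were not recorded. The other called genes were not followed one by one. The 404 J2 rises became 82 with a filter at 50, 819 with no filter beyond values above 0, 54 with genes above 0 in both groups (an alternative chosen after seeing the data, with fewer genes tested), and 322 to 383 when 1 library was left out. The 37 J2 falls became 12 with only the 5 compared libraries, 56 with both P18 genotypes as the reference, 71 with quantile normalization, 20 with genes above 0 in both groups, and 27 to 42 with 1 library left out. In flow-through, 237 higher became 170 to 279, and 11 lower became 5 to 26, with 1 library left out, and 4 lower with a pseudocount of 10. For the interaction, 13 more positive and 1 more negative became 2 and 0 with a replicate block on the shared sample code, 1 and 0 with the filter at 50, 44 and 3 with no filter, 30 more positive with quantile normalization, and 6 to 72 and 0 to 5 with 1 library left out. Libraries with the same code correlated at -0.0778 to 0.0453 in their deviations, and the labels do not say whether a shared code marks 1 sample, so whether the block applies is not known. Without the 10 highest genes the share differences (adult minus P18, percentage points) were -3.13 for histones, -2.54 for ribosomal proteins and 0.596 for spermatid chromatin, over a smaller total, and 0.996 against 5.04 for mitochondrial genes, 3 of which (mt-Rnr2, mt-Co1, mt-Rnr1) are among the 10 left out. With 1 library left out they were -1.71 to -1.06, -1.33 to -0.96 and 0.192 to 0.394, and 0.237 to 9.83 for mitochondrial genes. Of 111 named calls, 72 were lost under no alternative. Where 1 adult library was left out, the lone adult was assumed to vary like the other groups. Apart from the filters and the share totals, the cause of these changes was not tested. In flow-through a value of 10 stands for 1.2 to 4.99 reads, which limits what a 0 there shows.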
